A study of Mus musculus with 16 samples.

Results

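The secreted Wnt antagonists are proteins that cells release and that hold Wnt signalling down outside the cell. Described here are 8 mouse genes of this kind, Sfrp1, Sfrp2, Sfrp4, Sfrp5, Frzb, Wif1, Dkk2 and Dkk3. They were taken by symbol, 8 of the 38087 gene rows of experiment A and 8 of the 54232 rows of experiment B, and all 8 had a row in each. The group was put together because Sfrp2 and Wif1 were already known to be higher in CAP2-deficient hearts of this series. The members were thus chosen by their measured differences between the genotypes, and they are given below as values with their errors and without p-values. In each experiment 6 of the 8 passed the filter on low values, and Sfrp4 and Dkk2 did not.

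RNA came from whole hearts of C57BL/6 mice in a study of dilated cardiomyopathy that follows loss of CAP2, which binds actin and promotes the turnover of its filaments. Experiment A held 86-week-old females, 3 wild type and 3 CAP2 -/-, which carry the mutation throughout the body. Experiment B held 13-week-old Loxp/Loxp mice that carry a Cap2 allele flanked by loxP sites. The 5 controls with that allele and no Cre were 3 females and 2 males. The 4 Cre+ hearts came from mice that carried Myh6-Cre as well, 3 females and 1 male. The Myh6 promoter drives Cre in heart muscle cells, so the other cells of these hearts keep the allele, and no group here carried Cre without the loxP allele. Effects of Cre itself and of Cap2 loss thus cannot be told apart in experiment B. A further Cre+ library was not analysed here. Cap2 itself ran from 200 to 234 CPM (counts scaled to 1000000 per library) in wild-type and from 8.04 to 16.1 CPM in CAP2 -/- hearts. In experiment B it was at 391 ± 288 normalized counts in controls (SD, n = 5) and 65.0 ± 24.2 in Cre+ hearts (SD, n = 4), and in each experiment every CAP2-deficient heart was below every wild-type or control heart.

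Library totals were 10750175 to 27440478 estimated counts in experiment A and 5215836 to 12509520 normalized counts in experiment B. In experiment B mitochondrially encoded genes took 30.4% to 69.5% of the total in controls and 23.0% to 52.7% in Cre+ hearts. Without these genes its totals lay close together, from 3815980 to 4044523 normalized counts. In experiment A mitochondrially encoded genes took 0% of every total, so the totals of the experiments are not alike. Markers of adult heart muscle, such as Myh6 and Tnnt2, summed to 87012 to 105240 CPM in experiment A and to 203160 to 372790 normalized counts in experiment B, so each library held heart muscle RNA as labelled. Atrial markers set libraries of experiment B apart. Myl7, the atrial light chain gene, was at 21, 344, 3014, 16 and 58 normalized counts in controls 1 to 5 and at 105, 6996, 10677 and 17044 in Cre+ hearts 1 to 4, whereas it stayed between 1.11 and 1.72 CPM in the 6 libraries of experiment A.

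Wnt proteins are lipid-bearing signals that bind Frizzled receptors, and, in the canonical branch, also the co-receptors Lrp5 and Lrp6, which keeps beta-catenin from being degraded. The secreted Frizzled-related proteins (Sfrp1, Sfrp2, Sfrp4, Sfrp5 and Frzb, also called Sfrp3) carry a Frizzled-like cysteine-rich domain and bind Wnts. Wif1 (Wnt inhibitory factor 1) binds Wnts through a domain of its own, Dkk2 binds the Lrp co-receptors, and Dkk3 is the divergent member of the Dickkopf family. In the heart, Wnt signalling shapes the chambers and valves in development, is low in healthy adult muscle and returns after injury. Fibroblasts are known to release several of these antagonists.

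The sequences just before the start sites of Sfrp2 and Wif1, the genes for which the group was chosen, are shown because their RNA was higher in the same CAP2 -/- hearts. Both are from a set of RefSeq promoter sequences on build GRCm38.p6, and this set holds an entry for 5 of the 8 members. Capitals mark CTTTG, the core of the site that TCF and LEF factors bind.
Sfrp2: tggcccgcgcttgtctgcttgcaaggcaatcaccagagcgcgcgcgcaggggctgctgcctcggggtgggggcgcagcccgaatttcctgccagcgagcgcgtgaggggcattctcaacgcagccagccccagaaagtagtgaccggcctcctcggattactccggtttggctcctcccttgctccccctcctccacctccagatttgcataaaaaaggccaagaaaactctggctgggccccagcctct
Wif1: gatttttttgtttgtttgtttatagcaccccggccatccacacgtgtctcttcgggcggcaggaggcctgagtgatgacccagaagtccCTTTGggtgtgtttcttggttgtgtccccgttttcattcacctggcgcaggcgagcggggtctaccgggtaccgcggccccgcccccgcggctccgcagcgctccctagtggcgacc
The first is chr3:83766071-83766320 on the plus strand, 250 bases with 63.6% G and C and 16 CpG sites. The second is chr10:121033754-121033959 on the plus strand, 206 bases with 61.7% G and C and 17 CpG sites. Searched on both strands of 250-base windows, CTTTG was found 1 time each before Wif1, Frzb and Dkk2 and not before Sfrp2 or Sfrp5. It occurred in 48.6% of all 32851 windows of that length. The CArG box, the motif that SRF binds, was in none of the 5 member windows and in 1.47% of all windows. These are letter matches only. The windows of the 5 members were richer in CpG than most, with 7 (Dkk2) to 21 (Wif1) CpG sites against a median of 6 over all entries. The Wif1 stretch printed above is 206 bases long, so its 17 CpG sites differ from the 21 of its 250-base window.

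In 86-week-old hearts, 5 of the antagonists stood higher in CAP2 -/- than in wild-type animals, Sfrp2 by the most (fitted fold 6.33) and Wif1, Frzb, Dkk3 and Sfrp1 between 2.23-fold and 3.23-fold. The groups of all 5 did not overlap. Of the 6 tested members, 5 were called higher, where a call is an adjusted p under 0.05 over all genes in edgeR's quasi-likelihood test. Over all 16297 genes tested, 1.35% were called, 0.841% were called higher, and 5.55% were higher with groups that did not overlap. Since this contrast chose the members, these shares give the scale only. The authors' deposited table of this comparison lists log2 fold changes of 2.67 for Sfrp2, 1.67 for Wif1, 1.29 for Frzb, 1.25 for Dkk3 and 1.15 for Sfrp1. The median fitted log2 fold change was 1.28 over the 6 tested members and 0.01 over all genes.

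**Figure D1:**
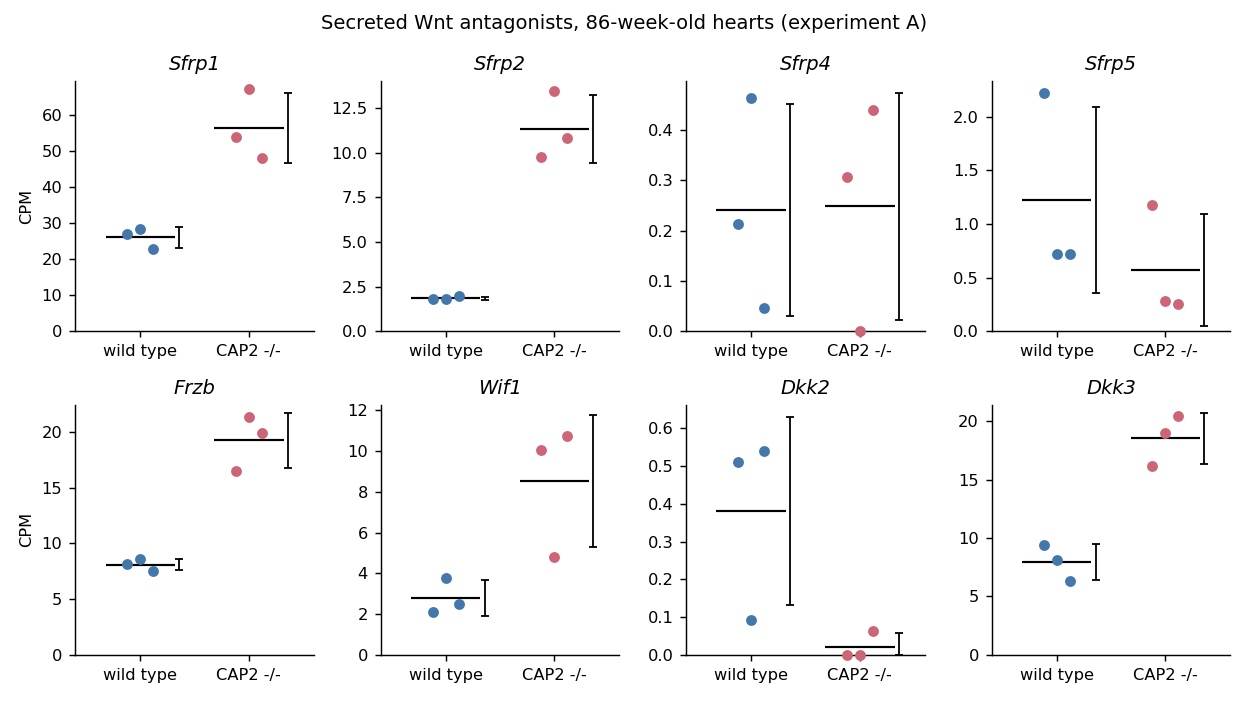
Level of each of the 8 antagonists in experiment A, in CPM (vertical axes start at 0 and differ between panels), for 3 wild-type (blue) and 3 CAP2 -/- (red) hearts. Points are libraries in the order of replicates 1 to 3, lines are group means and bars are 1 SD, drawn down to 0 at most; in Sfrp2 the red points sit between 9.73 and 13.4 CPM and the blue ones between 1.78 and 1.95 CPM.

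Among the Frizzled-related proteins, Sfrp2 (ENSMUSG00000027996, chromosome 3, 83766321 to 83774316, plus strand, mm10) was at 1.78, 1.78 and 1.95 CPM in wild-type replicates 1 to 3 and at 9.73, 13.4 and 10.8 CPM in CAP2 -/- replicates 1 to 3. The wild-type hearts lay within 1.09-fold of each other, and each CAP2 -/- heart was far above them. Group means were 1.84 ± 0.0949 and 11.3 ± 1.89 CPM (SD, n = 3 each), a log2 fold change of 2.66 (SE 0.24). Behind these levels were 19 to 49 estimated counts per wild-type library and 112 to 188 per CAP2 -/- library. Frzb (ENSMUSG00000027004, chromosome 2, 80411970 to 80447625, minus strand) was at 8.15, 8.56 and 7.55 CPM in wild-type and at 16.5, 21.3 and 19.9 CPM in CAP2 -/- hearts, a log2 fold change of 1.30 (SE 0.18). Sfrp1 (ENSMUSG00000031548, chromosome 8, 23411502 to 23449632, plus strand), the most abundant member, was at 26.96, 28.4 and 22.8 CPM in wild-type and at 53.8, 67.1 and 48.0 CPM in CAP2 -/- hearts, a log2 fold change of 1.16 (SE 0.15). Every CAP2 -/- heart was thus above every wild-type heart for these 3 genes.

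Sfrp5 (ENSMUSG00000018822, chromosome 19), known as a factor released by fat tissue, went the other way without a call. It was at 2.22, 0.723 and 0.716 CPM in wild-type and at 1.18, 0.286 and 0.251 CPM in CAP2 -/- hearts (log2 fold change -1.15, SE 0.67), and CAP2 -/- replicate 1 lay above wild-type replicates 2 and 3. The log2 fold change was -0.33 without wild-type replicate 1 and -2.21 without CAP2 -/- replicate 1. Sfrp4 (ENSMUSG00000021319, chromosome 13) was near the limit of detection, with 5.86, 4.99 and 0.771 estimated counts in the wild-type libraries and 3.51, 0 and 7 in the CAP2 -/- libraries.

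Wif1 (ENSMUSG00000020218, chromosome 10, 121033960 to 121100650, plus strand) was at 2.11, 3.78 and 2.52 CPM in wild-type and at 10.03, 4.82 and 10.8 CPM in CAP2 -/- hearts. CAP2 -/- replicate 2 stood apart, only a little above wild-type replicate 2, while the other 2 CAP2 -/- hearts were close to each other. Group means were 2.80 ± 0.874 and 8.54 ± 3.24 CPM (SD, n = 3 each), a log2 fold change of 1.69 (SE 0.33). Its call was lost, at log2 fold changes of 1.503, 1.62 and 1.48, when wild-type replicate 1, wild-type replicate 3 or CAP2 -/- replicate 3 was left out.

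Of the Dickkopf genes, Dkk3 (ENSMUSG00000030772, chromosome 7, 112116017 to 112159057, minus strand) was at 9.42, 8.14 and 6.31 CPM in wild-type and at 16.2, 19.0 and 20.4 CPM in CAP2 -/- hearts, a log2 fold change of 1.26 (SE 0.19). Dkk2 (ENSMUSG00000028031, chromosome 3) had the opposite order. Its estimated counts were 14, 1 and 9 in the wild-type and 0, 0 and 1 in the CAP2 -/- libraries. A count of 0 allows up to 3 counts, or 0.261 and 0.214 CPM in CAP2 -/- replicates 1 and 2, limits that lie below wild-type replicates 1 and 3 (0.510 and 0.539 CPM) but above wild-type replicate 2 (0.0930 CPM). Such limits cover counting error only. With no filter on low counts the fitted log2 fold change of Dkk2 was -3.68 (SE 1.27), a value that rests on 1 estimated count in the CAP2 -/- libraries.

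The deposited exon and transcript rows of experiment A gave the same picture at finer grain for Sfrp2. Of its 3 exons, 2 had at least 10 wild-type estimated counts, and both were higher in CAP2 -/- hearts without overlap, 4.86-fold and 7.16-fold by group means. Its main transcript, ENSMUST00000029625, held 82.9%, 91.4% and 90.4% of the gene in wild-type and 97.2%, 98.1% and 95.1% in CAP2 -/- libraries. A lncRNA gene, Gm26771, lies antisense to Sfrp2 and shares 347 bases of its exons. It was at 0 to 0.0465 CPM in wild-type and at 0.157 to 0.828 CPM in CAP2 -/- hearts, so if the counting ignored strand, reads of the 2 genes could not be told apart there; its level was at most 8.50% of that of Sfrp2 in any library. The other 7 members overlap no annotated gene. For Frzb, 3 of 6 exons reached the count minimum, at 1.84-fold to 3.37-fold, for Sfrp1 2 of 3 exons, at 2.16-fold and 2.17-fold, and for Dkk3 6 of 8, at 1.52-fold to 2.80-fold, with 3 of the 6 not overlapping. In Wif1 the exons are those of transcript ENSMUST00000020439. Only the first and last of its 10 exons reached the minimum, at 2.92-fold and 2.50-fold, and both overlapped between groups. That transcript held 68.3%, 69.3% and 1.8% of the gene in wild-type replicates 1 to 3. In CAP2 -/- replicates 1 to 3 it held 66.8%, 2.5% and 88.1%, so its exon values may not stand for the whole gene.

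Levels between genes can be compared per kilobase of exon. In wild-type hearts the order was Sfrp1 (5.96 ± 0.667 CPM per kb, SD, n = 3), Frzb (2.50 ± 0.157), Dkk3 (2.37 ± 0.465), Wif1 (1.15 ± 0.360), Sfrp2 (0.854 ± 0.0441), Sfrp5 (0.642 ± 0.457), Dkk2 (0.103 ± 0.0674) and Sfrp4 (0.0578 ± 0.0503). Sfrp1 stood clear of the rest, whereas Frzb and Dkk3, Wif1 and Sfrp2, Wif1 and Sfrp5, Sfrp2 and Sfrp5, and Dkk2 and Sfrp4 overlapped in their library values. In CAP2 -/- hearts Sfrp1 was still first at 12.9 CPM per kb, and Sfrp2, at 4.52 to 6.23 CPM per kb, had come to overlap Dkk3 (4.81 to 6.08) and Frzb (5.10 to 6.59).

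In 13-week-old hearts, where only heart muscle cells lose Cap2, Sfrp2 and Frzb were higher in all 4 Cre+ hearts than in all 5 controls, and Wif1 was not. None of the 6 tested members was called by limma (0 of 6), while 1.88% of the 12141 genes tested were called. An unadjusted p under 0.05 was reached by 3 members, Sfrp2, Frzb and Sfrp1. The share of all genes at that unadjusted level is not given here, so this count has no scale. The 2 members whose groups did not overlap compare with 3.87% of genes that were higher without overlap; as this contrast also chose the members, nothing is read from the counts. The median log2 fold change was 2.10 over the 6 tested members and -0.12 over all genes. Control hearts differed far more from each other than in experiment A.

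**Figure D2:**
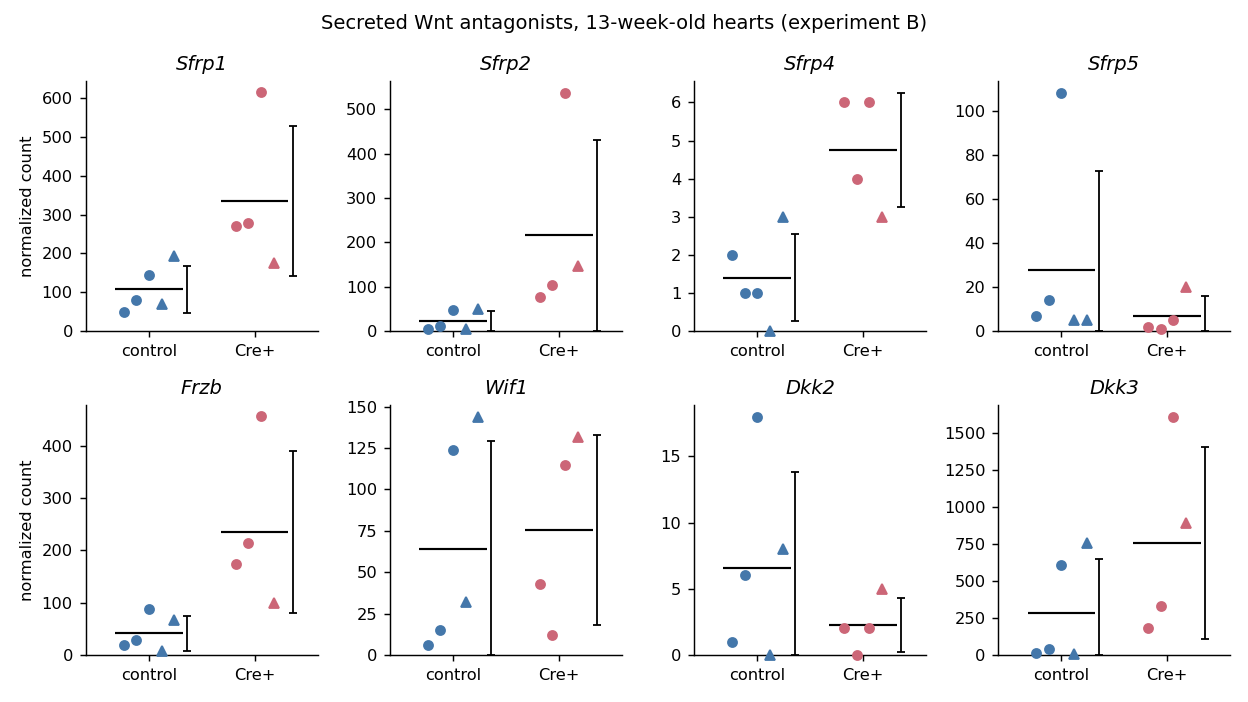
Level of each of the 8 antagonists in experiment B, in normalized counts (vertical axes start at 0 and differ between panels), for 5 control (blue) and 4 Cre+ (red) hearts, females as circles and males as triangles. Points are libraries in the order of replicates, lines are group means and bars are 1 SD, drawn down to 0 at most; Sfrp2 and Frzb are the panels in which all red points lie above all blue points, and Wif1 spans 6 to 144 in controls and 12 to 132 in Cre+ hearts.

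Sfrp2 was at 4, 12, 48, 5 and 49 normalized counts in controls 1 to 5 and at 78, 105, 537 and 146 in Cre+ hearts 1 to 4. The lowest Cre+ heart was above the highest control, and Cre+ replicate 3 was far above the other 3. The log2 fold change, fitted to log2(value + 1) beside a term for sex, was 3.36 (SE 0.81). Frzb was at 18, 29, 87, 8 and 66 in controls and at 173, 214, 456 and 99 in Cre+ hearts (log2 fold change 2.56, SE 0.61), again without overlap and with Cre+ replicate 3 highest. Sfrp1 was at 49, 81, 144, 69 and 194 in controls and at 271, 278, 615 and 176 in Cre+ hearts (log2 fold change 1.64, SE 0.45). For Sfrp1 the groups overlapped, since the male Cre+ heart, replicate 4, was under control 5, also a male.

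Wif1 was at 6, 15, 124, 32 and 144 normalized counts in controls 1 to 5 and at 43, 12, 115 and 132 in Cre+ hearts 1 to 4. The ranges were nearly the same, with 2 high controls and 2 high Cre+ hearts (log2 fold change 0.81, SE 0.85; 0.24 without control 1 and 1.58 without control 3). Dkk3 had the widest spread of all: 13, 40, 608, 4 and 753 in controls, a 188-fold range, and 180, 332, 1609 and 894 in Cre+ hearts (log2 fold change 3.06, SE 1.62; 2.09 without control 4 and 4.12 without control 3). Controls 3 and 5 were high for both of these genes. Sfrp5 was at 7, 14, 108, 5 and 5 in controls and at 2, 1, 5 and 20 in Cre+ hearts (log2 fold change -1.41, SE 0.97), with control 3 far above the rest. Without control 3 it did not pass the filter on low values, and without the other libraries in turn the log2 fold change ran from -2.84 (without Cre+ replicate 4) to -0.94 (without Cre+ replicate 2). Sfrp4 stayed at 0 to 3 in controls and 3 to 6 in Cre+ hearts, and Dkk2 at 0 to 18 and 0 to 5.

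Leaving libraries out changed which members were called in experiment B. Without control 5 the calls were Sfrp1, Sfrp2 and Frzb, but calls over all genes also went from 228 to 525 of 12140. Without Cre+ replicate 1 they were Sfrp2 and Frzb, with 695 of 12104 genes called, and in females alone they were Sfrp1 and Frzb, with 214 of 12170 genes called. Per kilobase, the order of medians in controls was Sfrp1 (18.5 normalized counts per kb), Wif1 (13.2), Dkk3 (11.9), Frzb (8.96), Sfrp2 (5.57), Sfrp5 (3.68), Dkk2 (1.62) and Sfrp4 (0.239), and every pair of neighbours in this order overlapped over the 5 hearts.

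**Figure D3:**
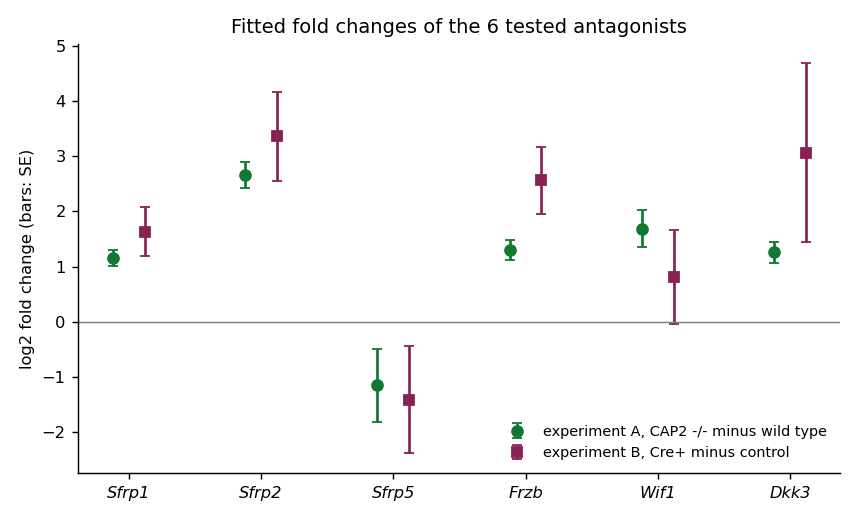
Fitted log2 fold change with its SE for the 6 tested antagonists, in experiment A (green circles, CAP2 -/- minus wild type) and experiment B (purple squares, Cre+ minus control). Sfrp1, Sfrp2, Frzb, Wif1 and Dkk3 lie above 0 and Sfrp5 below 0 in both, with wider bars in experiment B, where the bar of Wif1 (0.81, SE 0.85) crosses 0.

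Set side by side, the fitted log2 fold changes in experiments A and B were 2.66 and 3.36 for Sfrp2, 1.30 and 2.56 for Frzb, 1.16 and 1.64 for Sfrp1, 1.26 and 3.06 for Dkk3, 1.69 and 0.81 for Wif1, and -1.15 and -1.41 for Sfrp5. The experiments differ in age, allele and library kit, and the difference between their fold changes was not tested. Of the 5 members whose groups were apart in experiment A, Sfrp2 and Frzb were apart in experiment B as well, whereas Sfrp1, Wif1 and Dkk3 overlapped.

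Sex played no part in choosing the members and could be tested in experiment B. None of the 6 tested members was called between the 3 males and 6 females by the sex term of the limma fit (0 called, and 0 at an unadjusted p under 0.05), where 0.0247% of all genes were called. Wif1 showed the largest difference, 1.596 on the log2 scale (SE 0.90) higher in males, with an adjusted p of 0.429.

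In bulk heart RNA, a higher level of a gene can come from more cells that express it or from more RNA per cell, and these cannot be told apart. Markers of other cells are therefore given beside the members. The 15 resident fibroblast markers (Pdgfra, Tcf21, Dcn and others) include the collagen genes Col1a1, Col1a2 and Col3a1. They summed to 3060 to 3497 CPM in wild-type and 3531 to 3663 CPM in CAP2 -/- hearts, all detected. Of the 15, 2 were called higher, Mfap4 (log2 fold change 1.65) and Fstl1 (1.03). Whether this sum follows the number of fibroblasts or their activation was not tested. The 13 activated fibroblast markers (Postn, Comp, Thbs4 and others) moved much further, from a sum of 277 to 374 CPM to one of 2276 to 3746 CPM, with 5 of 11 tested called higher; Fmod stands on this list and on the valve list. Per 1000 CPM of resident fibroblast markers, Sfrp2 was at 0.510 to 0.609 in wild-type and 2.66 to 3.76 in CAP2 -/- hearts, and Wif1 at 0.603 to 1.24 and 1.35 to 3.05. Per fibroblast marker, Sfrp1, Frzb and Dkk3 also kept groups that did not overlap. The share of all genes apart by this measure is not given here. As this contrast chose the members, nothing is read from their being apart. Among other cell types in experiment A, endocardial and valve markers summed to 148 to 156 CPM in wild-type and 191 to 218 CPM in CAP2 -/- hearts. Of these 7 tested, 1 was called higher, Cytl1 (log2 fold change 0.82). Mesothelial and epicardial markers summed to 39.4 to 68.3 and 37.5 to 49.6 CPM. Of these 8 tested, 1 was called higher, Krt18 (1.53), and their median was -0.08. Over all genes, 1.35% were called. Of the 6 atrial markers tested in experiment A, 1 was called higher, Nppa, which stressed ventricles also make, and 4 passed an unadjusted p of 0.05 (Bmp10 at a log2 fold change of 2.97, edgeR adjusted p = 0.0612, and Myl4 at 0.76, adjusted p = 0.0856). The summed atrial list was at 125 to 166.1 CPM in wild-type and 3713 to 4588 CPM in CAP2 -/- hearts, while Sln was at or near 0 in all 6 libraries. This sum holds Nppa, whose log2 fold change was 5.48, whereas the median over the 6 tested atrial markers was 0.46. What atrial RNA contributes was not tested.

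With the mean log2 level of the resident fibroblast markers as a covariate, chosen after seeing the data, the log2 fold changes in experiment A were 2.46 (SE 0.43) for Sfrp2, 2.17 (SE 0.58) for Wif1, 1.10 (SE 0.27) for Sfrp1, 1.02 (SE 0.32) for Frzb and 0.80 (SE 0.33) for Dkk3. The calls of Wif1, Sfrp1, Frzb and Dkk3 were lost in this fit, which called 53 genes in all. The covariate itself was higher in every CAP2 -/- heart (6.44 to 6.63) than in every wild-type heart (6.29 to 6.40). It thus moves with the group, and with 6 libraries the fit can hardly separate the 2. The SE of Sfrp1 rose from 0.15 to 0.27 and that of Wif1 from 0.33 to 0.58. The part of fibroblast activation in the values was not tested.

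In experiment B the resident fibroblast markers differed between hearts of the same group. Of the 15, limma called 3 higher in Cre+ hearts, among them Fstl1 (log2 fold change 2.24) and Pcolce (1.69). It called 1 lower, Scara5 (-1.43), where 1.88% of all genes were called. The 15 markers summed to 12892, 18824, 30988, 9872 and 34606 normalized counts in controls 1 to 5 and to 30413, 34667, 57122 and 33757 in Cre+ hearts 1 to 4. Controls 3 and 5, the highest controls for Dkk3, Wif1 and Sfrp2, were also the highest for these markers, and Cre+ replicate 3, the highest heart for Sfrp1, Sfrp2, Frzb and Dkk3, was the highest of all 9. Controls 3 and 5 and Cre+ hearts 1, 2 and 4 had like fibroblast sums. Among these 5 hearts Sfrp2 was at 48 and 49 normalized counts in controls against 78, 105 and 146 in Cre+ hearts. Frzb was at 87 and 66 against 173, 214 and 99. The groups overlapped for Sfrp1 (144 and 194 against 271, 278 and 176) and Dkk3 (608 and 753 against 180, 332 and 894). They also overlapped for Wif1 (124 and 144 against 43, 12 and 132) and Sfrp5 (108 and 5 against 2, 1 and 20). The part of fibroblasts in these values was not tested. Activated fibroblast markers did not overlap, at 746 to 6538 in controls and 19165 to 22718 in Cre+ hearts.

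**Figure D4:**
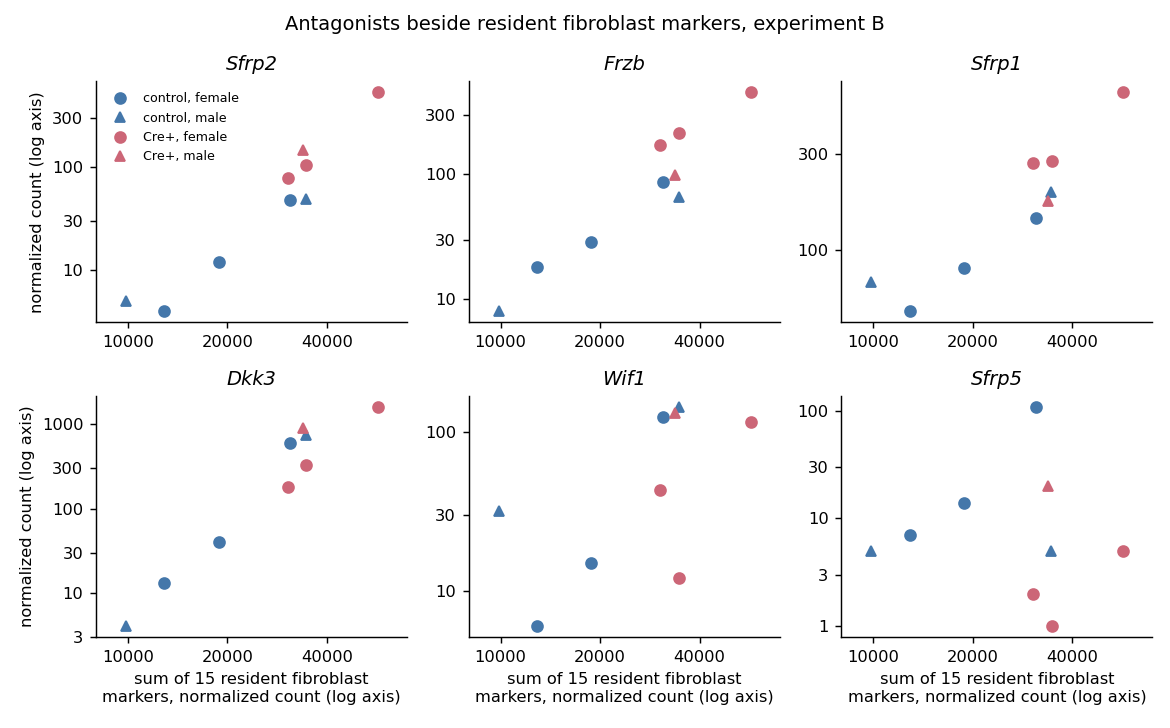
Level of the 6 tested antagonists (vertical log axes, normalized counts) against the sum of 15 resident fibroblast markers (horizontal log axis, normalized counts) in the 9 hearts of experiment B; blue marks controls, red Cre+, circles females and triangles males. Sfrp2, Frzb, Sfrp1 and Dkk3 are highest in the heart with the highest fibroblast sum (57122) and lowest in the controls with the smallest sums (9872 and 12892).

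Per 1000 normalized counts of resident fibroblast markers, Sfrp2 was at 0.310 to 1.55 in controls and 2.56 to 9.40 in Cre+ hearts, and Frzb at 0.810 to 2.81 and 2.93 to 7.98, still without overlap. By the same measure Sfrp1 (3.80 to 6.99 and 5.21 to 10.8), Wif1 (0.465 to 4.16 and 0.346 to 3.91) and Dkk3 (0.405 to 21.8 and 5.92 to 28.2) overlapped. The share of all genes apart by this measure is not given for experiment B either. With the fibroblast level as a covariate, the log2 fold changes were 1.33 (SE 0.35) for Sfrp2, 1.04 (SE 0.29) for Frzb and 0.61 (SE 0.31) for Sfrp1, and were -0.47 (SE 0.67) for Dkk3 and -1.01 (SE 0.67) for Wif1. With the atrial markers Myl7 and Sln as a covariate they were 2.08 for Sfrp2, 1.80 for Frzb, 1.31 for Sfrp1, 0.64 for Dkk3 and -0.20 for Wif1. Both covariates were chosen after seeing the data, and both move with the group. Mesothelial and epicardial markers summed to 45, 140, 176, 161 and 924 in controls 1 to 5 and to 483, 527, 750 and 735 in Cre+ hearts 1 to 4. All controls but control 5 were thus under every Cre+ heart. Of the 7 tested, 1 was called higher, Krt18 (log2 fold change 3.81), where 1.88% of all genes were called. Their median log2 fold change was 2.04. Endocardial and valve markers summed to 599, 613, 1708, 973 and 2274 in controls 1 to 5. In Cre+ hearts 1 to 4 the endocardial and valve sum was 1448, 1281, 2874 and 1723. What these cells contribute was not tested.

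Genes whose levels followed Sfrp2 or Wif1 most closely were sought among 11806 genes tested in both experiments. The members themselves, and genes with no name or only a predicted or clone name, were then left out. The rest were ranked by the smaller of the Pearson correlations over the 6 libraries of experiment A and the 9 of experiment B. These correlations span both groups, so they hold the group difference as well, and they are a description. For Sfrp2 the closest were Itgbl1, an integrin beta-like gene (r = 0.97 in A and 0.95 in B), Timp2, an inhibitor of matrix metalloproteases (0.95 and 0.95), and Dact3, a Dishevelled-binding antagonist of Wnt signalling inside the cell (0.95 and 0.95). For Wif1 they were Kank1, an adaptor at cell adhesions (0.88 and 0.92), Tceal8 (0.91 and 0.88) and Reck, a membrane-anchored metalloprotease inhibitor (0.92 and 0.85). Of the members, Sfrp1 and Frzb followed Sfrp2 as closely or more so: Sfrp1 had r = 0.97 in experiment A and 0.96 in experiment B, and Frzb 0.99 and 0.95. Dkk3 had 0.95 and 0.91. The rest did not follow it in both experiments, with Sfrp4 at -0.07 and 0.77, Sfrp5 at -0.57 and -0.09, and Dkk2 at -0.78 and 0.18. Between Sfrp2 and Wif1 the correlations were 0.81 and 0.61.

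Beyond the members, 98 genes of the Wnt pathway were listed, of which 71 were tested in experiment A and 65 in experiment B. Of the 71, 4 rose in CAP2 -/- hearts (19 passed an unadjusted p of 0.05) and none fell, by edgeR, where 1.35% of all genes were called in either direction and 0.841% higher. Of the 65, 1 rose in Cre+ hearts (11 passed an unadjusted p of 0.05) and none fell, by limma, a share no higher than the 1.88% of all genes called there. Their median log2 fold changes were -0.02 and 0.09, close to those of all genes, 0.01 and -0.12.

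**Figure D5:**
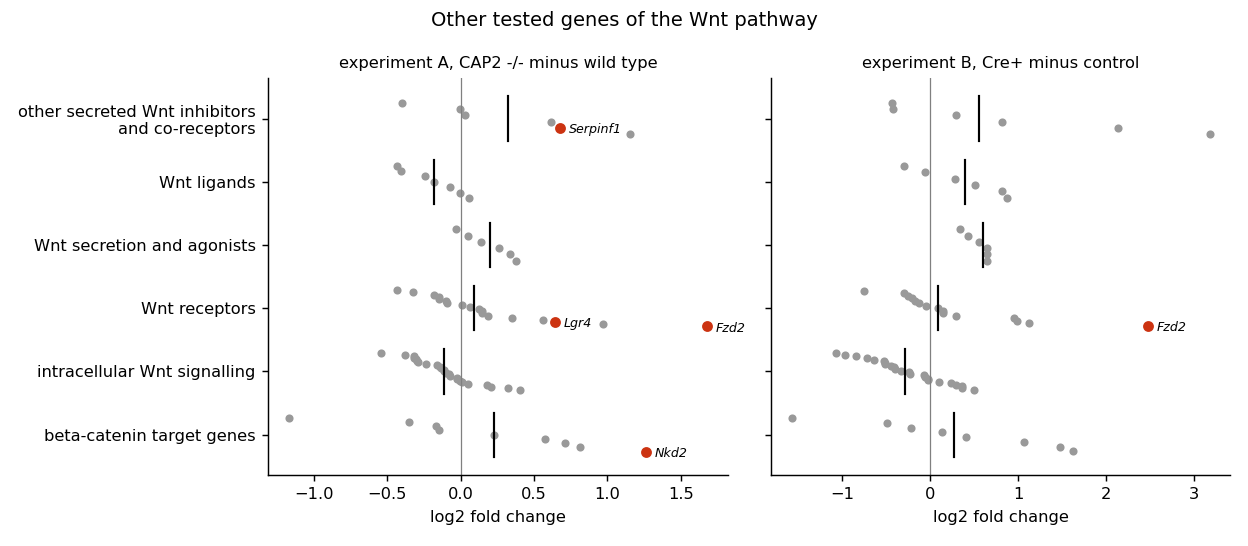
Fitted log2 fold changes of the tested Wnt pathway genes other than the 8 antagonists, 71 in experiment A (left) and 65 in experiment B (right), by list. Grey points were not called, red named points had an adjusted p under 0.05 and black bars are list medians; Fzd2 is the only gene marked in both panels.

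Among receptors, Fzd2, a Frizzled receptor, rose in both experiments. It was at 5.87, 3.35 and 3.59 CPM in wild-type and at 10.9, 15.8 and 14.0 CPM in CAP2 -/- hearts, without overlap (log2 fold change 1.68, SE 0.24, edgeR adjusted p = 0.00117, higher in 3 of 3 hearts). In experiment B it was at 8, 22, 29, 9 and 25 normalized counts in controls and at 153, 87, 85 and 83 in Cre+ hearts, every one above every control (log2 fold change 2.48, SE 0.43, limma adjusted p = 0.0203). In experiment A the call held without any single library, at adjusted p-values up to 0.0127. In experiment B it was lost without control 1, control 2 or Cre+ replicates 2, 3 or 4, at adjusted p-values up to 0.0893, with log2 fold changes of 2.14 to 2.70 over all left-out libraries. With resident fibroblast markers as a covariate the log2 fold changes were 0.97 in A and 1.84 in B, and neither was called. Lgr4, an R-spondin receptor, rose in experiment A (28.1 ± 2.56 to 42.4 ± 8.34 CPM, SD, n = 3 each; log2 fold change 0.64, edgeR adjusted p = 0.0463) but reached adjusted p-values up to 0.273 without single libraries, and in experiment B its log2 fold change was 0.15 (SE 0.35). The other 16 receptors tested in experiment A, and the 14 tested beside Fzd2 in experiment B, did not pass.

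Among the other secreted inhibitors, 1 of 6 tested rose in experiment A, Serpinf1, which encodes pigment epithelium-derived factor, from 36.9 ± 4.05 to 57.0 ± 9.12 CPM (SD, n = 3 each; log2 fold change 0.68, edgeR adjusted p = 0.0194). This call was lost without wild-type replicates 1 or 3 or CAP2 -/- replicates 2 or 3, at adjusted p-values up to 0.131. In experiment B its log2 fold change was 2.14 (SE 0.51, limma adjusted p = 0.0606), and all 4 Cre+ hearts, at 735 to 1307 normalized counts, were above all 5 controls, at 78 to 501. Sost, sclerostin, an Lrp-binding inhibitor, had log2 fold changes of 1.15 (SE 0.58) and 3.18 (SE 1.10) and was not called in either.

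No Wnt ligand passed the test, with 0 of 7 in experiment A by edgeR and 0 of 6 in experiment B by limma, and none of them at an unadjusted p under 0.05. Their median log2 fold changes were -0.18 and 0.40. Nor did any gene of Wnt secretion and agonists (0 of 6 in each; 2 in A and 0 in B at an unadjusted p under 0.05) or of intracellular Wnt signalling (0 of 25 and 0 of 24; 6 and 4 at an unadjusted p under 0.05). The median of the intracellular genes was -0.11 in experiment A and -0.28 in experiment B.

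Of the beta-catenin target genes, 1 of 9 tested rose in experiment A and 0 of 8 in experiment B, each with 3 at an unadjusted p under 0.05. The one was Nkd2, a feedback inhibitor that binds Dishevelled, at 2.68 ± 0.274 CPM in wild-type and 6.25 ± 1.30 CPM in CAP2 -/- hearts (SD, n = 3 each; log2 fold change 1.26, edgeR adjusted p = 0.0253). Without any single library other than CAP2 -/- replicate 1 it was no longer called, at adjusted p-values up to 0.134. In experiment B its log2 fold change was 1.62 (SE 0.49, limma adjusted p = 0.104), with 59 to 157 normalized counts in Cre+ hearts and 7 to 46 in controls. Axin2, a target widely used to read beta-catenin activity, had log2 fold changes of 0.57 (SE 0.39) in experiment A and -1.58 (SE 0.57) in experiment B and was not called in either. The 3 targets at an unadjusted p under 0.05 were mixed in direction. In experiment A they were Nkd2, Tnfrsf19 (log2 fold change 0.71) and Nkd1, which was lower (-1.17, SE 0.44). In experiment B they were Nkd2, Ccn4 (1.48) and Axin2, which was lower.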

How the data were processed

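Hearts were profiled with Ion Total RNA-Seq Kit v2 (experiment A) or Illumina TruSeq stranded mRNA kits (experiment B), as the protocols in the labels state. STAR 2.6.0c, DESeq and build mm10 appear in the submitters' processing notes without a role; how reads were counted, and whether by strand, is not given in the sources used here. Estimated counts per gene and per exon, and a share per transcript, were deposited for experiment A. Its deposited comparison holds a mean normalized signal, log2 fold changes and p-values, per the file headers. The values of experiment B, handled as a score, are normalized counts in whole numbers as deposited by the authors; their scaling is unstated, which leaves the depth unknown.

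The members and all gene lists were chosen with earlier results of these data known. GENCODE M21 named and placed 36308 of 38087 gene identifiers (A) and 54165 of 54232 (B). Experiment A was fitted in edgeR 4.0.16 (R 4.3.3) on rounded estimated counts with TMM, filterByExpr and the robust quasi-likelihood test; the SE is the log2 fold change divided by the square root of F. CPM values use the unadjusted library total. Experiment B was fitted in limma 3.58.1 (trend and robust) to log2(value + 1) of genes averaging 10 or more, beside a sex term; this scale understates changes of low genes. P-values were adjusted by Benjamini-Hochberg over all genes tested. The scripts were tested on simulated data.

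Named genes are the 8 members, Cap2 and called genes of each pathway list (up to 3 by p). Also named are the 3 genes most correlated with Sfrp2 and with Wif1, after the exclusions stated, and up to 3 genes per marker list. Axin2, Sost, Nkd1, Tnfrsf19, Ccn4, Myl7 and Sln were named after their values were seen. Alternatives were DESeq2 1.42.0, other scalings and filters, a pseudocount of 10, covariates, a replicate block and leaving out each library. The labels number each library, and in B list both sexes within a group, without stating that every library is its own animal; as far as it is not, the p-values cover technical spread. Same-numbered libraries had correlated deviations of -0.17 to -0.02 (A) and -0.11 to 0.24 (B), so the numbers were not used as pairs. No library was identical to another, and replicate libraries in A differed beyond sampling noise (chi-square per gene 11.5 to 31.7).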

Additional observations from a re-analysis of the deposited data

Results flagged for a closer look

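Dixon's test for a library far from the rest of its group was run on 26 groups of named genes in experiment B, on log2(value + 1), and picked out 2; chance alone picks out about 1 in 20 groups. In both it was Cre+ replicate 1, a female. For Fzd2 that heart was at 153 normalized counts, with the other 3 Cre+ hearts at 83 to 87, and for Nkd2 it was at 157, with the others at 59 to 69. No secreted antagonist had such a library, and in this heart Sfrp2 (78) and Dkk3 (180) were the lowest of the 4 Cre+ values.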

How the results depend on the processing

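Of the log2 fold changes of named genes, those of experiment A kept their direction under every alternative run, and 6 values of experiment B reversed. Those were Wif1 (-1.01) and Dkk3 (-0.47) with the resident fibroblast covariate, Wif1 (-0.20) with the atrial covariate, and Lgr4, near 0 throughout, with a covariate for the mitochondrial share (-0.16) and without control replicate 2 or Cre+ replicate 3 (-0.017 to 0.49 with single libraries left out). In experiment A, 220 genes were called (137 higher and 83 lower; 131 and 128 without TMM factors), against 402 with DESeq2, 512 with no filter on low counts and 53 with the fibroblast covariate, and 126 to 275 with single libraries left out. Called members there numbered 1 with the fibroblast covariate and 4 to 5 with libraries left out, and called pathway genes 0 and 1 to 4. In experiment B, 228 genes were called (115 higher and 113 lower; 151 and 67 with TMM scaling, 211 and 124 with quantile normalization), against 346 with no filter, 36 with the mitochondrial share, 25 with the fibroblast and 19 with the atrial covariate, and 39 to 695 with libraries left out. Called members in experiment B numbered 2 with a pseudocount of 10 (253 of 12141 genes called) and 2 with TMM scaling (218 of 12141). They numbered 3 with quantile normalization (335 of 12141), 2 in females only (214 of 12170) and 0 to 3 with libraries left out. Called pathway genes there numbered 2 with TMM scaling, 3 with quantile normalization, 2 in females only, 0 with the fibroblast or atrial covariate and 0 to 4 with libraries left out. The replicate block called 4 members (Wif1 was lost) and 2 pathway genes in experiment A. In experiment B, where control replicate 5 has no partner and was dropped from the replicate block, it called 394 genes, 4 members (Sfrp1, Sfrp2, Frzb and Dkk3) and 2 pathway genes. The cause of these changes was not tested. Low counts limit Sfrp4, Sfrp5 and Dkk2 in experiment A, and precision in experiment B is limited by the spread between hearts.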
